A study of Rattus norvegicus with 12 samples.

Results

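Caveolins, annexins, S100 proteins and galectins are small proteins that bind membranes or the calcium and sugar signals at their surface. Of their genes 10 are described here in rat cortical cultures: the caveolins Cav1 and Cav2, the annexins Anxa1, Anxa2 and Anxa5, the S100 genes S100a10, S100a6 and S100a11, and the galectins Lgals1 and Lgals3. They were taken by name, 10 of the 28111 gene names in the files, and each has 1 row. The names were chosen by family and with their levels in these libraries already known from earlier results; which of the 4 groups weighed most in the choice is not recorded. The values of the 10 genes in every comparison that uses EV or IC libraries are therefore a description. For those comparisons the genes past a threshold are counted beside the share of all genes, as part of the description, and no p-value of the 10 genes is given. Their p-values are printed only for the total secretome against the 3–100 kDa proteins, and these too may not be free of the choice.

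The libraries came from primary neuroglial cultures of the cerebral cortex of newborn Wistar rats at 10 days in vitro, with RNA taken 4 h after the addition. The intact control (IC) received no addition. The other cultures received extracellular vesicles at 10 µg/mL (EV), 3–100 kDa proteins at 15 µg/mL or the total secretome at 45 µg/mL, all from glial progenitor cells made from human induced pluripotent stem cells. Each of the 4 groups has 3 libraries. Neither genotype nor allele differs between groups. The labels give pups of postnatal day 0, whereas the study's methods give an age slightly above that, and the methods describe cytosine arabinoside in the cultures against dividing glia, which all groups then share. Doses differ between the 3 additions, so their values stand side by side. The labels do not say whether the 3 libraries of a group came from separate cultures. The study's methods say in general that experiments were repeated on unrelated cultures, and its supplement names a day covariate for IC and EV, but neither gives the culture or day of a library here. If the libraries are not from separate cultures, the p-values measure only a spread that may be technical. Levels are given as TPM, each transcript's share of the library after division by its length, and the read depth behind them is unknown.

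Caveolins are integral proteins that line caveolae, flask-shaped pits of the plasma membrane, together with the cavins on their cytosolic face. Annexins bind acidic phospholipids when calcium rises and take part in membrane repair, trafficking and the resolution of inflammation. S100 proteins are small calcium-binding proteins, and S100A10 pairs with annexin A2 in a heterotetramer that binds plasminogen and tissue plasminogen activator at the cell surface. Galectins bind β-galactosides on glycoproteins and on damaged endosomes. In brain several of these genes are better known from reactive astrocytes, microglia and vessels than from resting neurons.

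In the gene table of the GRCr8 assembly, Cav2 and Cav1 are neighbours with no entry between them, and S100a11 and S100a10 are separated by 1 pseudogene entry. Promoter windows of 250 bases before to 50 bases after the start were given by RefSeq on GRCr8 for 7 of the 10 genes, with 8 windows in all because Cav1 has a pair of starts. The motif of AP-1 (Fos and Jun dimers), TGANTCA on either strand, was found in the windows of Anxa2 and Cav2 and in 7.33% of all 33469 windows. Both stretches are printed because these genes sit low in IC and higher in the other groups, with the match in capitals. It begins 123 bases before the start in Anxa2 (TGAGTCA) and 145 bases before it in Cav2 (TGACTCA).
Anxa2, GRCr8 chr8:78986002-78986251, plus strand: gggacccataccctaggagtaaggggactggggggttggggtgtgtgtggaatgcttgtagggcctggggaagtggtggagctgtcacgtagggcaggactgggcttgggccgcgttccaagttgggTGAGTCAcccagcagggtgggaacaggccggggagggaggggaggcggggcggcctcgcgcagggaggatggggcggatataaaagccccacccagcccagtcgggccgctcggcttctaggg
Cav2, GRCr8 chr4:46582431-46582680, plus strand: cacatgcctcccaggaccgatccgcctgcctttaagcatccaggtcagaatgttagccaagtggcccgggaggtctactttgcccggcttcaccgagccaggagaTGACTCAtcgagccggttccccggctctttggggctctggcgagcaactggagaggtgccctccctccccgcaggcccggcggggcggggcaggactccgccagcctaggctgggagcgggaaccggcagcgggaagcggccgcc
The letters of the cyclic AMP response element (TGACGTCA) were in none of the 8 windows and in 1.83% of all windows. Those of the TEAD site (GGAATG) were in the windows of Anxa1 and Anxa2 and in 14.2% of all, and those of the GC box (GGGCGGG) in windows of 5 of the 7 genes and in 22.7% of all. A match is a description of the sequence, not evidence that a factor bound.

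Of the 10 genes 8 had their mean levels in one order, lowest in IC, then EV, then the total secretome, and highest with the 3–100 kDa proteins, beside 13.5% of the 13263 genes that reached 1 TPM in at least 3 of the 12 libraries. The exceptions were S100a6 and S100a11, which had the lowest levels of the 10 when averaged over all libraries. S100a10 was the most abundant in every library and made up between 47.7 and 61.1% of the summed TPM of the 10. That sum was between 93.2 and 157 TPM in IC, between 187 and 235 TPM after EV, between 332 and 438 TPM after the total secretome and between 544 and 585 TPM after the 3–100 kDa proteins. For S100a10, Anxa2 and Lgals3 no neighbours in this order overlapped, beside 0.324% of those 13263 genes, whereas for Anxa1, Anxa5 and Lgals1 all neighbours did. As the genes were chosen with their levels known, nothing is read from either count.

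**Figure D1:**
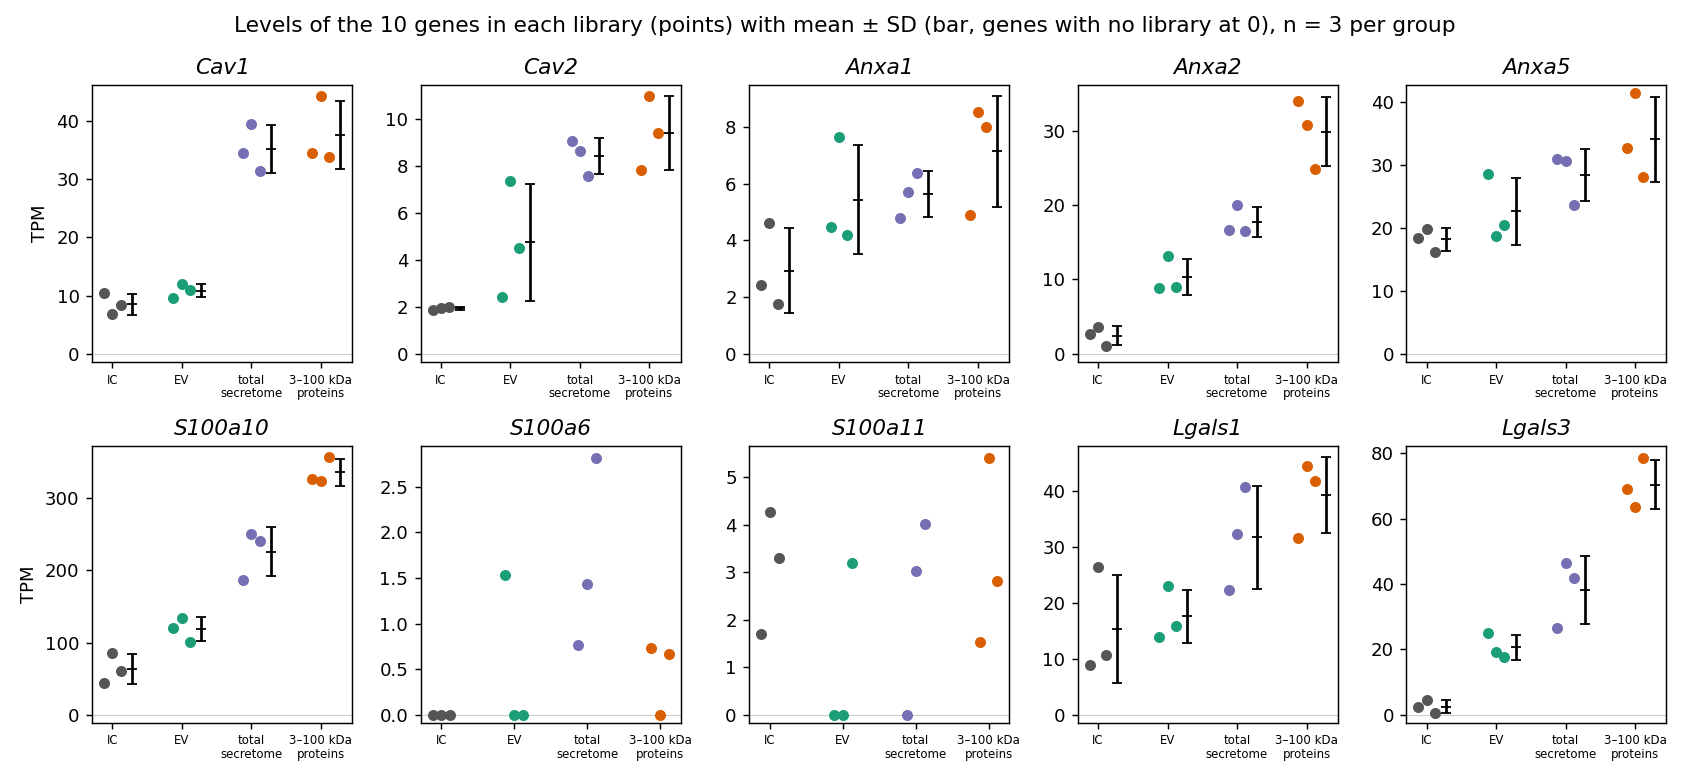
Level of each of the 10 genes in TPM (vertical axis, linear) in IC, EV, total secretome and 3–100 kDa protein libraries; each point is 1 library, and the bar gives the mean and SD of 3 for genes with no library listed at 0. S100a10, Anxa2 and Lgals3 climb from group to group without overlap, Cav1 has a low pair and a high pair of groups, and S100a6 and S100a11 stay under 6 TPM.

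Both caveolins were higher with the total secretome and the proteins than in EV or IC libraries, and Cav2 was also higher after EV than in IC. Cav1, the main structural protein of caveolae outside muscle, had 10.4, 6.81 and 8.31 TPM in the IC libraries and 9.64, 12.003 and 10.9 TPM in the EV libraries. It was at 34.5, 39.4 and 31.3 TPM after the total secretome and at 34.5, 44.2 and 33.8 TPM after the 3–100 kDa proteins. IC and EV libraries overlapped, as did those of the secretome and the proteins, but no library of the first pair reached the second. On the log2(TPM + 1) scale, on which changes of low genes are understated, Cav1 stood 0.32 (SE 0.20) above IC after EV, 1.95 (SE 0.17) after the total secretome and 2.05 (SE 0.18) after the 3–100 kDa proteins.

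Cav2, which forms hetero-oligomers with CAV1, had 1.86, 1.96 and 2.01 TPM in the IC libraries, against 2.41, 7.37 and 4.503 TPM after EV. Its levels were 9.08, 8.64 and 7.61 TPM after the total secretome and 7.84, 11.01 and 9.44 TPM after the 3–100 kDa proteins. The 3 IC libraries were nearly equal and lay below every other library, while EV libraries had the widest relative spread and approached the secretome group only in replicate 2. Its log2 difference from IC was 0.86 (SE 0.32) for EV, 1.69 (SE 0.17) for the total secretome and 1.84 (SE 0.20) for the 3–100 kDa proteins. The ratio of Cav1 to Cav2 lay between 3.48 and 5.59 in IC, between 3.58 and 4.56 in the secretome and protein libraries, and at 4.00, 1.63 and 2.43 after EV.

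Among the annexins, Anxa2 spread most between groups. This partner of S100A10 was at 2.72, 3.57 and 1.01 TPM in IC, at 8.87, 13.2 and 9.01 TPM after EV, at 16.6, 20.0 and 16.5 TPM after the total secretome and at 33.9, 30.7 and 24.8 TPM after the 3–100 kDa proteins. Every step in this series was free of overlap. Its log2 difference from IC was 1.78 (SE 0.32) for EV, which ranked 41 of 12749 genes tested from the highest, 2.54 (SE 0.29) for the total secretome and 3.26 (SE 0.29) for the 3–100 kDa proteins.

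Anxa1, known from glucocorticoid action and the clearance of inflammation, had 2.44, 4.62 and 1.76 TPM in the IC libraries and 4.48, 7.66 and 4.18 TPM in the EV libraries. The other groups were at 4.78, 5.70 and 6.40 TPM for the total secretome and at 4.91, 8.53 and 8.01 TPM for the 3–100 kDa proteins. IC replicate 2 reached into the EV range, and the 3 treated groups overlapped one another. Its log2 differences from IC were 0.73 (SE 0.32), 0.83 (SE 0.29) and 1.11 (SE 0.32) for EV, the total secretome and the 3–100 kDa proteins.

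Anxa5, widely used as a probe of exposed phosphatidylserine, had the highest IC level of the 3 annexins, at 18.4, 19.9 and 16.2 TPM. EV libraries held 28.6, 18.7 and 20.5 TPM, secretome libraries 30.9, 30.6 and 23.6 TPM, and protein libraries 32.6, 41.4 and 28.2 TPM. EV replicate 2 lay within the IC range and EV replicate 3 just above it, whereas all 6 libraries of the other additions stood clear of IC. The log2 differences from IC were 0.27 (SE 0.21) for EV (0.08 without EV replicate 1), 0.63 (SE 0.13) for the secretome and 0.89 (SE 0.15) for the proteins.

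S100a10, which encodes the p11 subunit bound by annexin A2, was at 44.5, 84.9 and 60.0 TPM in IC, at 121, 134 and 101 TPM after EV, at 187, 250 and 241 TPM after the total secretome and at 327, 324 and 357 TPM after the 3–100 kDa proteins. All 4 groups were apart from one another. The log2 difference from IC was 0.93 (SE 0.25) for EV, 1.88 (SE 0.27) for the total secretome and 2.47 (SE 0.25) for the 3–100 kDa proteins. S100a10 and Anxa2 did not keep one ratio. In IC the level of S100a10 was 16.3, 23.8 and 59.3 times that of Anxa2, and in the 9 treated libraries it was between 9.63 and 14.6 times.

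S100a6 and S100a11 were near the floor of the files. S100a6 (calcyclin) was listed at 0 in all 3 IC libraries, at 1.54, 0 and 0 TPM after EV, at 0.768, 1.43 and 2.81 TPM after the total secretome and at 0.728, 0 and 0.670 TPM after the 3–100 kDa proteins. A listed 0 may be a failed estimate, because the ribosomal protein gene Rps6 was also listed at 0 in all 12 libraries, so no fold is given. S100a11, a calcium-dependent partner of annexin A1, was at 1.71, 4.27 and 3.29 TPM in IC, at 0, 0 and 3.20 TPM after EV, at 0, 3.03 and 4.01 TPM after the total secretome and at 1.53, 5.40 and 2.81 TPM after the 3–100 kDa proteins. Its groups overlapped throughout, and its log2 difference from IC was −1.28 (SE 0.60) for EV, the only negative one of the 9 genes tested there, and −1.99 without EV replicate 3.

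Of the 9 genes tested, Lgals3 had the largest differences from IC on the log2 scale for each of the 3 additions. Galectin-3 is best known from activated microglia and macrophages and from damaged lysosomes. Its gene was at 2.27, 4.47 and 0.41 TPM in IC, at 24.8, 19.3 and 17.5 TPM after EV, at 26.5, 46.5 and 41.7 TPM after the total secretome and at 69.2, 63.6 and 78.4 TPM after the 3–100 kDa proteins. IC libraries differed from one another more, in proportion, than those of any other group, yet all lay below every treated library. The log2 difference from IC was 2.87 (SE 0.46) for EV, 3.73 (SE 0.48) for the total secretome and 4.64 (SE 0.44) for the 3–100 kDa proteins, ranking 11, 5 and 7 from the highest among all genes tested in each comparison.

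Lgals1, which encodes galectin-1 of astrocytes and neural stem cells, had 8.86, 26.5 and 10.7 TPM in the IC libraries, against 13.9, 22.9 and 15.9 TPM after EV. It was at 22.3, 32.4 and 40.7 TPM after the total secretome and at 31.7, 44.5 and 41.9 TPM after the 3–100 kDa proteins. IC replicate 2 lay above every EV library, and it also had the highest IC level of S100a10, Anxa1, Anxa2, Anxa5, Lgals3 and S100a11. The log2 differences from IC were 0.30 (SE 0.40), 1.14 (SE 0.42) and 1.47 (SE 0.38) for EV, the total secretome and the 3–100 kDa proteins. For EV the value was −0.03 without IC replicate 1 and 0.75 without IC replicate 2, so its direction rests on single libraries.

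**Figure D2:**
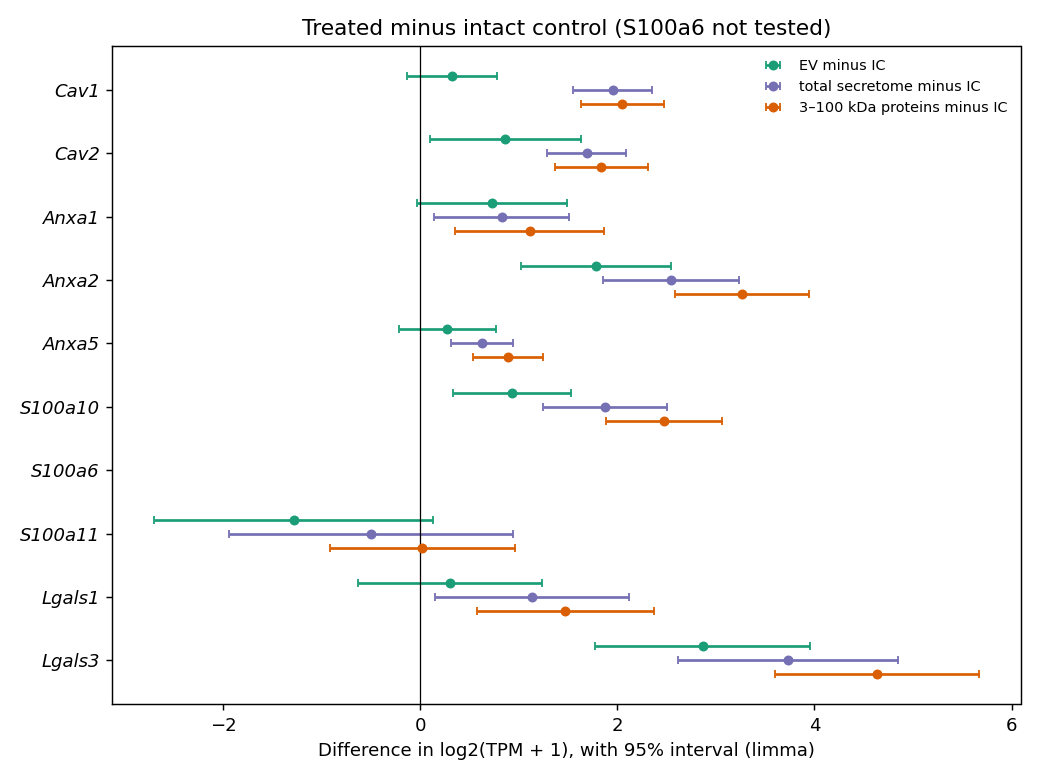
Difference of each addition from IC in log2(TPM + 1) (horizontal axis) with its 95% interval from limma, for the 9 genes tested; colours mark EV, total secretome and 3–100 kDa proteins. Lgals3 lies farthest to the right at 2.87, 3.73 and 4.64, and S100a11 has wide intervals on both sides of 0. The genes were chosen with their levels known, so whether an interval reaches 0 is a description and not a test.

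Counted over the genes tested, 9 of the 10 entered each comparison with IC, since S100a6 fell under the minimum of 1 TPM in 3 of 6 libraries. At an unadjusted p under 0.05 in limma and over 1.5-fold, 4 of 9 were higher after EV (Cav2, Anxa2, S100a10 and Lgals3), beside 1.56% of all genes. The same rule took 8 of 9 after the total secretome, beside 5.55%, and 8 of 9 after the 3–100 kDa proteins, beside 6.63%. At an FDR under 0.05 the counts were 0, 5 and 6 of 9, beside 0.102, 1.68 and 2.82% of all genes. The groups did not overlap for 4, 7 and 8 of the 9 genes, all higher than IC, beside 3.22, 11.4 and 10.7%. Since the genes were chosen with such differences known, nothing is read from these counts. The 3 comparisons also share the IC libraries. The median log2 difference of the genes tested was 0.73 for EV, 1.69 for the total secretome and 1.84 for the 3–100 kDa proteins, beside −0.01, −0.01 and −0.02 over all genes.

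Set against the other additions, the fitted EV mean was lower for each gene tested, although for Anxa1 EV replicate 2 lay above every secretome library. EV minus 3–100 kDa proteins was −1.72 for Cav1, −0.97 for Cav2, −1.48 for Anxa2, −1.53 for S100a10, −1.16 for Lgals1 and −1.76 for Lgals3 on the log2 scale, and between −1.29 and −0.37 for Anxa1, Anxa5 and S100a11. By the rule of p and fold 7 of 9 were lower, beside 3.56% of all genes, and by FDR 4 of 9, beside 0.495%, and the libraries did not overlap for 6 of 9, beside 14.2% in either direction. Against the total secretome, EV was lower by the rule of p and fold in 6 of 10, beside 2.57%, and by FDR in 1 of 10 (Cav1), beside 0.141%, and the libraries did not overlap for 5 of 10, beside 11.8%. Nothing is read from these counts either. The EV minus total secretome values were −1.62 for Cav1, −0.94 for S100a10, −0.86 for Lgals3, −0.75 for Anxa2 and −0.09 (SE 0.25) for Anxa1, which became 0.04 without total secretome replicate 3 or EV replicate 3. The 15 µg/mL of proteins and 45 µg/mL of secretome are not matched to the 10 µg/mL of vesicles.

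The comparison of total secretome with 3–100 kDa proteins uses neither EV nor IC libraries. Fitted without a block, none of the 9 genes tested passed an FDR of 0.05 in limma. By unadjusted p under 0.05 and over 1.5-fold 2 (Anxa2 and Lgals3) were lower, beside 0.716% of all genes. In this fit 3 had an unadjusted p under 0.05 whatever the fold. These were Anxa2, at −0.71 (SE 0.14, 95% interval −1.03 to −0.40, adjusted p = 0.859), S100a10, at −0.58 (SE 0.17, interval −0.98 to −0.19, adjusted p = 0.9999) and Lgals3, at −0.90 (SE 0.25, interval −1.47 to −0.32, adjusted p = 0.9999), as total secretome minus proteins. All 3 secretome libraries lay below all 3 protein libraries for these 3 of the 9 genes, beside 5.01% of all genes whose groups did not overlap in either direction. S100a6, near the floor and not tested, lay the other way. It was at 0.768, 1.43 and 2.81 TPM with the secretome against 0.728, 0 and 0.670 TPM with the proteins. Over all 12713 genes tested 2 passed the FDR, 0.0157%. For the caveolins the intervals included 0, from −0.38 to 0.20 for Cav1 and from −0.52 to 0.24 for Cav2. Without a block the intervals for Anxa1 (−0.86 to 0.31), Anxa5 (−0.56 to 0.05) and Lgals1 (−0.95 to 0.30) included 0 as well. They leave room for a difference in either direction. S100a11, at −0.51, had the widest interval (−1.97 to 0.95), and its value was 0.22 without total secretome replicate 1. With the replicate number as a block the adjusted p was 0.389 for Anxa2, 0.472 for S100a10 and 0.504 for Lgals3. With the block Anxa5 (−0.25, SE 0.096, limma adjusted p = 0.904) and Lgals1 (−0.33, SE 0.12, limma adjusted p = 0.876) also had an unadjusted p under 0.05.

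Beyond the 10 genes, 58 relatives and partners had been listed by family, of which 56 are in the files. Against IC at an FDR under 0.05 in limma, 4 of 34 tested rose after the 3–100 kDa proteins, 4 of 32 rose after the total secretome, and 0 of 31 passed after EV. The share of all genes higher by this rule was 2.82, 1.68 and 0.102%. Leaving out 1 library gave between 2 and 4 FDR calls for the proteins, with 2 without protein replicate 2 or 3. For the secretome it gave between 0 and 7, with 0 without secretome replicate 2 or 3, so no secretome call held in every such fit. Over all genes the secretome calls fell as well, from 252 to 31 without secretome replicate 3. For the 4 genes called, every secretome library lay above every IC library, beside 11.4% of all genes. By unadjusted p and fold the counts were 10, 8 and 3, all higher, beside 6.63, 5.55 and 1.56% of all genes. The median log2 difference was 0.21, 0.18 and 0.02, beside −0.02, −0.01 and −0.01 over all genes. The 4 genes were Ptrf, Anxa7, Plat and Capn2 in both comparisons with FDR calls.

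Ptrf encodes cavin-1, the coat protein without which caveolae do not form. It was at 1.84, 2.92 and 1.53 TPM in IC, at 7.43, 9.35 and 6.33 TPM after EV, at 10.95, 15.8 and 12.9 TPM after the total secretome and at 22.6, 24.8 and 30.2 TPM after the 3–100 kDa proteins, with no overlap between groups. It rose by 3.16 on the log2 scale with the proteins (SE 0.24, limma adjusted p = 0.00129) and by 2.23 with the secretome (SE 0.24, limma adjusted p = 0.00745). After EV its difference was 1.49 (SE 0.24, limma adjusted p = 0.124), and EV minus proteins was −1.66 (limma adjusted p = 0.0273). None of the other 8 caveola partners tested with the proteins passed the FDR against IC, and the differences went both ways. Of all 9 tested, 4 were above 0, and the list's median was −0.23, beside −0.02 over all genes. For the secretome 4 of 8 tested were above 0 with a median of 0.24, and for EV 4 of 9 with a median of −0.01. Pacsin2, a membrane-bending F-BAR protein, differed by 0.71 (limma adjusted p = 0.0678), and Ehd2, the ATPase at the neck of caveolae, by 0.90 (limma adjusted p = 0.0985). Prkcdbp, which encodes cavin-3, stood at 0.78 (limma adjusted p = 0.312). Below 0 were Pacsin3 at −0.49, the flotillins Flot1 at −0.35 and Flot2 at −0.33, and the cavin genes Sdpr at −0.28 and Murc at −0.23.

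Of the other annexins 4 were expressed enough to test. Anxa7 was at 21.4 ± 3.05 TPM in IC, 28.4 ± 2.49 after EV, 36.4 ± 1.65 after the total secretome and 40.7 ± 2.83 after the proteins (SD, n = 3). It rose by 0.93 with the proteins (limma adjusted p = 0.0150) and by 0.76 with the secretome (limma adjusted p = 0.0377). With the replicate number as a block the secretome value no longer passed (limma adjusted p = 0.0603). Anxa11, an annexin of RNA granule transport, differed by 0.93 with the proteins (limma adjusted p = 0.122). Of the other S100 genes 7 were tested against IC in the protein comparison and none was called, with log2 differences between −0.16 and 0.44, and none of the 2 other galectins tested (Lgals8 and Lgalsl) was called either.

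Plat, the tissue plasminogen activator that the S100A10 and annexin A2 complex binds, was at 7.27, 8.86 and 6.71 TPM in IC, at 9.02, 20.5 and 19.6 TPM after EV, at 18.9, 35.9 and 30.0 TPM after the total secretome and at 25.2, 46.3 and 41.1 TPM after the proteins. It rose by 2.15 with the proteins (limma adjusted p = 0.00624) and by 1.74 with the secretome (limma adjusted p = 0.0234), and replicate 1 was the lowest library in all 3 treated groups. The urokinase receptor gene Plaur had 0, 1.26 and 0.599 TPM in the IC libraries, against 3.57, 4.38 and 10.9 TPM after the proteins, with an adjusted p of 0.0620 in limma. Capn2, a calcium-activated protease of membrane repair, was at 47.0 ± 2.65 TPM in IC, 62.5 ± 8.30 after EV, 75.8 ± 6.23 after the secretome and 91.0 ± 6.04 after the proteins (SD, n = 3). It rose by 0.97 with the proteins (limma adjusted p = 0.00588) and by 0.69 with the secretome (limma adjusted p = 0.0241), which no longer passed with the block (limma adjusted p = 0.0511). Between EV and the proteins 1 related gene (Ptrf) passed the FDR. With the block 5 did, adding Anxa7, Plat, Plaur and Capn2. The formyl peptide receptor genes Fpr1, Fpr2 and Fpr3, which answer to annexin A1, were listed at 0 in all 12 libraries.

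**Figure D3:**
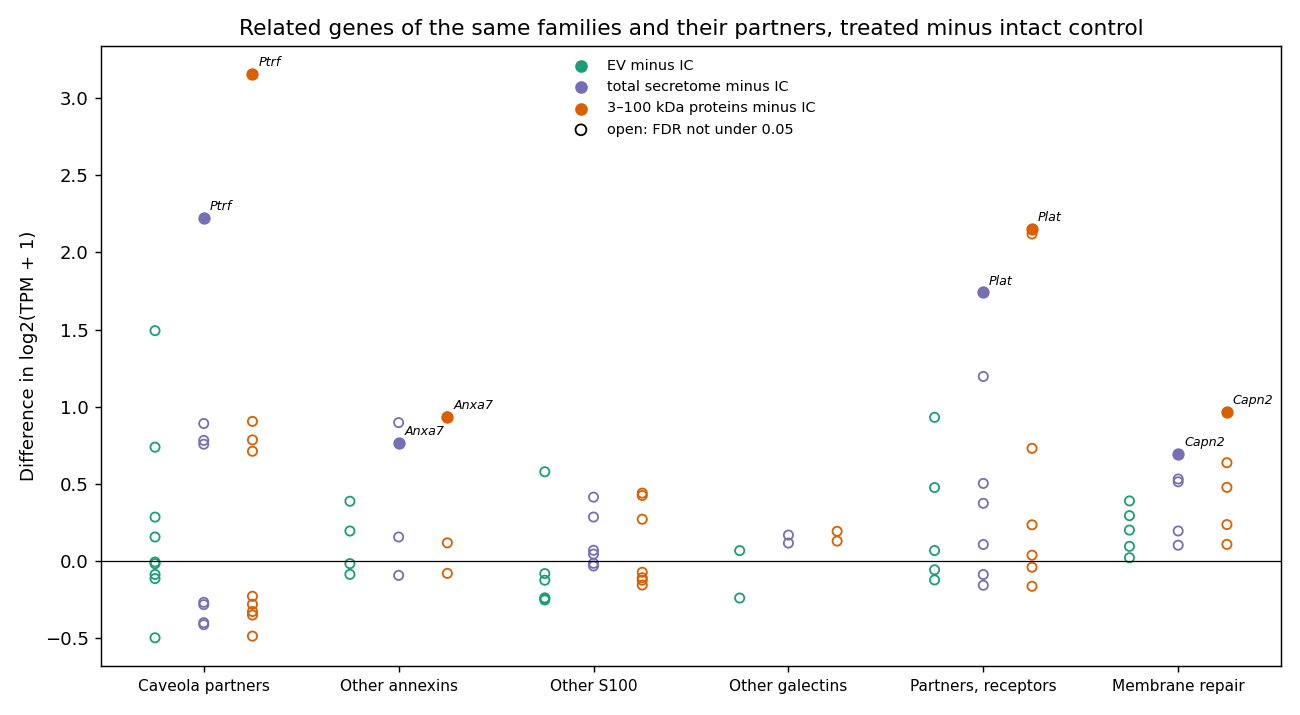
Difference from IC in log2(TPM + 1) (vertical axis) of the related genes tested, by list; each point is 1 gene under 1 addition, filled where the FDR in limma was under 0.05. The filled points are Ptrf, Anxa7, Plat and Capn2 under both the secretome and the protein fraction, and no point is filled for EV.

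The averaged profile of the 10 genes over the 12 libraries, itself scaled to z-scores, was set beside 13263 genes by root mean square distance in SD units. The nearest were Cebpa (0.149), a C/EBP transcription factor, and Ccnd1 (0.152), cyclin D1, followed by the unnamed AC120246.2 (0.166) and Baz1a (0.170), a chromatin remodelling subunit. Then came Myl12a (0.191), a myosin light chain, Riok2 (0.194), a kinase of ribosome maturation, Mybbp1a (0.210), a nucleolar protein, Vim (0.211), vimentin, Btg3 (0.212) and Egr1 (0.216), an immediate-early factor. Within the 10 genes S100a10 lay closest to their own average at 0.190 and S100a11 farthest at 1.20. Ccnd1 was at 30.3 ± 8.78 TPM in IC, 71.4 ± 15.1 after EV, 131 ± 31.8 after the total secretome and 184 ± 26.5 after the 3–100 kDa proteins. Vim was at 135 ± 53.6, 248 ± 70.1, 419 ± 92.3 and 548 ± 98.2 TPM in the same order (SD, n = 3). The distances describe these 12 libraries and carry no test.

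Markers of the other cells that a cortical culture can hold were summed in every library. The 8 neuronal markers summed to between 2409 and 2539 TPM in IC, 2343 and 2655 after EV, 1968 and 2424 after the total secretome and 2033 and 2315 after the 3–100 kDa proteins. The 8 astrocyte markers summed to between 894 and 1179 TPM in IC, 1162 and 1525 after EV, 1228 and 1581 after the secretome and 1030 and 1421 after the proteins. None of these 8 passed the FDR against IC, and Gfap, with the largest difference, stood at 1.58 for EV (limma adjusted p = 0.9998), 1.40 for the secretome (limma adjusted p = 0.269) and 1.05 for the proteins (limma adjusted p = 0.356).

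The 8 microglial markers summed to at most 2.42 TPM in any library, in IC replicate 2, and to at most 0.552 TPM with the proteins, where Lgals3 was highest. Of the endothelial markers 7 of 8 were in the files, with Tie1 at 0 throughout, and they summed to between 0.196 and 0.416 TPM in IC, 0.0751 and 0.5997 after EV, 0.351 and 0.566 after the secretome and 0.639 and 0.758 after the proteins. The 8 fibroblast and meningeal markers, with Ptgds at 0 throughout, summed to between 1.25 and 1.81 TPM in IC, 1.06 and 3.13 after EV, 1.66 and 3.05 after the secretome and 2.28 and 2.96 after the proteins, and the 8 mural markers to between 6.84 and 12.4 TPM over all libraries. Among the mural markers with the proteins Pdgfrb fell by 1.42 on the log2 scale (limma adjusted p = 0.0234) and Cnn1 rose by 1.73 (limma adjusted p = 0.0279). The 8 oligodendrocyte lineage markers summed to between 183 and 236 TPM in IC, 193 and 232 after EV, 238 and 265 after the secretome and 124 and 189 after the proteins. Between the secretome and the proteins, where p-values of the 10 genes are given, their sums did not overlap, and all 7 of them tested were higher with the secretome (median log2 difference 0.48, none past the FDR in limma and 2, Olig1 and Olig2, at an unadjusted p under 0.05). The 4 erythroid markers used summed to at most 4.69 TPM. The endothelial, fibroblast and erythroid sums were higher in all protein libraries than in any IC library. The neuronal sums were lower in all protein libraries (at most 2315 TPM) than in any IC library (at least 2409 TPM). In all secretome libraries the astrocyte sums (from 1228 TPM) and the oligodendrocyte lineage sums (from 238 TPM) were above those of IC (up to 1179 and 236 TPM). The part of these cells, or of the glial lists, in the values of the 10 genes was not tested. In these bulk samples more cells of a type and more RNA per cell cannot be told apart.

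**Figure D4:**
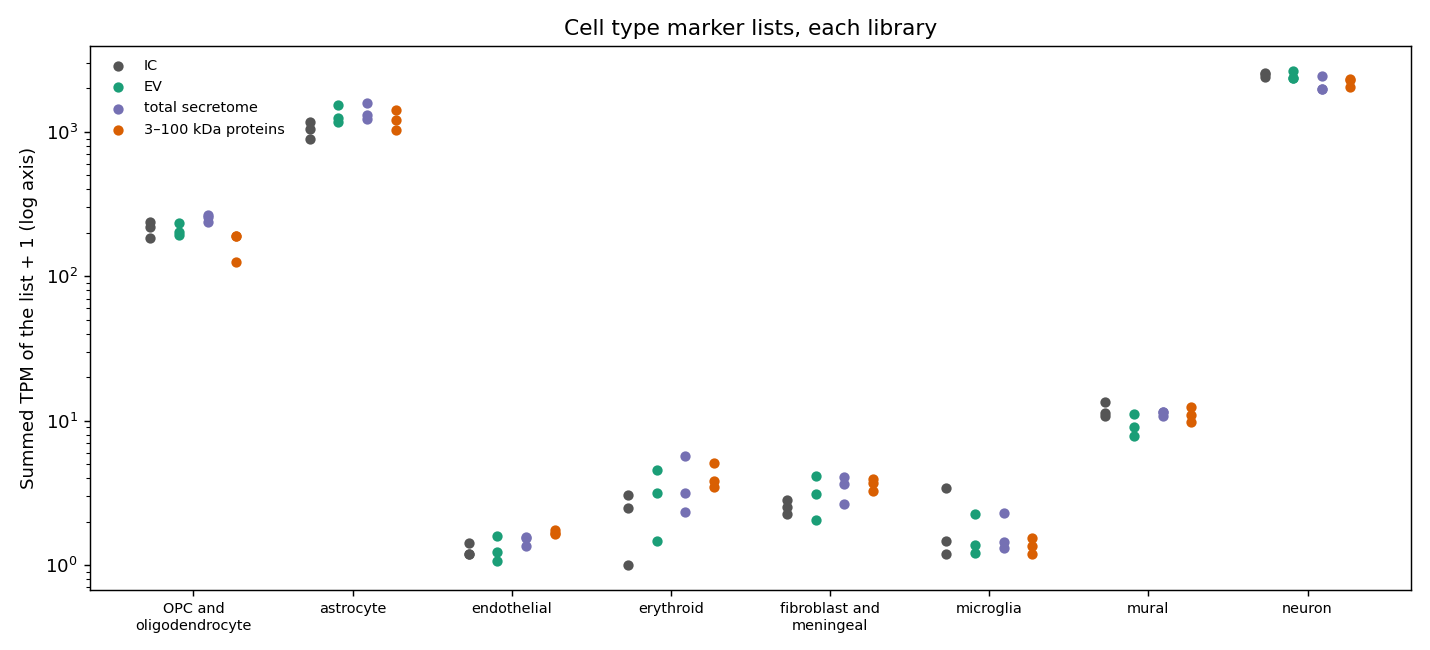
Summed TPM plus 1 (vertical axis, log scale) of each cell type marker list; each point is 1 library and colours mark the 4 groups. Neuronal and astrocyte lists lie far above the others in every library, and microglial and endothelial lists stay under 2.5 TPM.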

How the data were processed

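After trimming, the authors ran Salmon on the rat rn6 transcripts (Ensembl 106) and collapsed transcripts to genes with tximport 1.37.2. The unit is not named in the files; the deposited values sum to 1000000 in each library and were taken as TPM, which the authors' tools scale by transcript length and library total. TPM keeps no depth, so no counting interval could be given and no count test was run. The labels name a DNBSEQ strand-specific mRNA library and the study's methods another kit and a NextSeq instrument, and both accounts are left as they stand.

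Rows sharing a name were added up. Libraries of a comparison were brought to one scale with median-of-ratios factors (0.909 to 1.08). A gene was kept if 3 or more of the 6 libraries reached 1 TPM, and was tested on log2(TPM + 1) with limma 3.58.1 (lmFit, eBayes with a trend) in R 4.3.3, which was tested on simulated data first. Each of the 6 pairs of groups was fitted on its own, with Benjamini-Hochberg adjustment over all genes tested. A call was an FDR under 0.05 or an unadjusted p under 0.05 with over 1.5-fold. The 10 genes, the lists and the rules were chosen with earlier results of these data known. Related genes were named if they passed the FDR in any comparison, or were among the 4 of lowest p past the other rule in one. Nearest genes were the 10 with the smallest distance to the averaged z-scores, after that average was itself turned into z-scores. The cavins were looked up under older symbols such as Ptrf. Listed genes that were not matched, S100a14, Chmp4b and Pecam1 among them, were not analysed here.

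Same-numbered libraries were checked for pairing by the correlation of their deviations from the group means. It was above 0.1 in all pairs for the total secretome and IC (0.25, 0.16, 0.16), EV and the proteins (0.59, 0.29, 0.30), EV and the secretome (0.26, 0.19, 0.21) and the secretome and the proteins (0.38, 0.21, 0.24). These were read as paired, from the data and not from the labels; the day covariate that the study's supplement names is not given per library. It was not for EV and IC (−0.08, −0.18, 0.54) or the proteins and IC (−0.01, −0.25, 0.25).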

Additional observations from a re-analysis of the deposited data

How the results depend on the processing

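Alternatives were a pseudocount of 0.1, no filter, a filter at 5 TPM, no rescaling, quantile normalisation, no variance trend, the highest row of a name, the replicate block and a fit of all 12 libraries; the 12 libraries with the block were added after seeing the data. Over the comparisons that use EV or IC libraries 8 log2 differences of the 10 genes moved beyond 1 SD. All did so with the pseudocount of 0.1 and all away from 0. For the secretome against the proteins only a change of sign or of FDR call was looked for. Over all 6 comparisons leaving out 1 library turned the sign of 5 log2 differences. S100a11 in the total secretome against the 3–100 kDa proteins went from −0.51 to 0.22 without total secretome replicate 1 (range −0.99 to 0.22), and in the secretome against IC from −0.50 to 0.24 without the same library. In the proteins against IC it went from 0.02 to −0.29 without protein replicate 2 and to −0.28 without IC replicate 1, and to −0.01 with quantile normalisation. Lgals1 (EV against IC) and Anxa1 (EV against the secretome) are given in the report. The cause was not tested. For EV against IC, 2 of the 10 genes and 1 related gene passed the FDR in the fit of all 12 libraries, with or without the block, where 0 and 0 did in the main setting. Related genes called for the proteins against IC went from 4 to 9 with all 12 and the block. For the secretome against IC they went from 4 to 2 with no rescaling or with the block, and to 7 with all 12 and the block. For EV against the proteins they went from 1 to 0 with no filter, 3 with all 12, and 5 with the block, within the pair or with all 12. The fits of all 12 use more libraries for the spread. In the unpaired comparison of the proteins with IC, Anxa7 was no longer called with the block (limma adjusted p = 0.0802). Of the 10 genes, the count past the FDR lost Anxa5 there and gained Lgals1 in EV against the proteins, which is a description as in the report. Beside these and the calls given in the report, the block within a pair changed no FDR call of the 10 or the related genes. Over all genes, FDR calls moved from 18 to between 0 and 74 for EV against IC, from 423 to between 193 and 1265 for the proteins and from 252 to between 192 and 845 for the secretome against IC, from 68 to between 43 and 340 for EV against the proteins, from 24 to between 16 and 112 for EV against the secretome, and from 2 to between 0 and 5 for the secretome against the proteins. Leaving out 1 library gave 0 to 21, 83 to 484, 31 to 809, 2 to 72, 0 to 52 and 0 to 3 in the same order, lowest without IC replicate 1 or any EV library, protein replicate 3, secretome replicate 3, EV replicate 2, secretome replicate 2 or 3, and protein or secretome replicate 2.

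Leaving out each library in turn gave these counts of the 10 genes by p and fold and by FDR, then of related genes by FDR: 3 to 5, 0 to 1 and 0 for EV against IC; 8, 5 to 7 and 2 to 4 for the proteins against IC; 5 to 8, 1 to 8 and 0 to 7 for the secretome against IC; 5 to 8, 0 to 4 and 0 to 1 for EV against the proteins; 3 to 6, 0 to 1 and 0 for EV against the secretome; 2 to 3, 0 and 0 for the secretome against the proteins. For the secretome against IC, 1 of the 10 genes passed the FDR without secretome replicate 2 or 3 and 8 without IC replicate 2, and 0 related genes without secretome replicate 2 or 3. For EV against the proteins 0 of the 10 passed without replicate 2 or 3 of either group. For EV against the secretome 0 passed without secretome replicate 2 or 3 or EV replicate 2. The unknown depth limits low genes such as S100a6 and S100a11 most.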
